A study of Mus musculus with 9 samples.

Results

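The interferon gamma (IFN gamma) induced GTPases were followed across whole NB9464 tumors. They are a list of 10 named genes, with no threshold on measured values: the guanylate-binding proteins Gbp2, Gbp3, Gbp4, Gbp5, Gbp6 and Gbp7, and the immunity-related GTPases Irgm1, Irgm2, Igtp and Iigp1. They are 10 of the 54429 gene symbols in the count table, and all 10 passed the filter on low counts. NB9464 is a mouse neuroblastoma line, and cells were placed under the skin of wild-type C57BL/6 mice, whose own immune system was intact. Treatment started once tumors measured 250 mm3. Each group had 3 tumors. The first received vehicle, the second received R788 + anti-PDL1, and the third received Rad + R788 + anti-PDL1, in which the same drug and antibody were joined to 10 Gy of radiation. R788 (fostamatinib), dosed at 50 mg/kg, is converted in the body to an inhibitor of the kinase Syk, and anti-PDL1 is an antibody against the checkpoint ligand PD-L1. The series text places the doses between day 28 and day 37. The 3 tumors given radiation are called irradiated replicates 1 to 3. No group received a single agent, so R788 and anti-PDL1 cannot be told apart, and radiation can be read only on top of both. All tumors came from 1 cell line.

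IFN gamma, a cytokine made mainly by T cells and NK cells, binds its receptor and signals through the kinases JAK1 and JAK2. Responding genes carry GAS elements and ISRE elements in their promoters, and the latter are bound by interferon regulatory factors. The GTPases are among the most strongly induced of these genes in macrophages and in many other cells. Guanylate-binding proteins assemble on the membranes of vacuoles and bacteria and promote inflammasome signalling, whereas Irgm1, Irgm2 and Igtp (also called Irgm3) restrain the effector GTPases, such as Iigp1, on the cell's own membranes.

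Whole-tumor RNA mixes cancer cells with stroma and immune cells, so fewer cells of a type and less RNA per cell cannot be told apart here. Total counts ranged from 18276683 to 23397886 per library. Values are given in CPM, the count per 1000000 counts of the library after scaling with its TMM (trimmed mean of M values) factor. Where no read was counted, up to 3 counts are allowed, or 0.114 to 0.221 CPM depending on the library, and this covers counting error only. Irradiated replicate 1 stood apart from the rest, with a TMM factor of 0.743 against 0.975 to 1.12, counts at 18263 genes against 19732 to 22129, and correlations of log2 CPM with the other 8 libraries of 0.867 to 0.91 across genes. The labelled cell type was checked against neuroblast markers. Hand2 (324 to 866 CPM) and Mycn (93.2 to 250 CPM) were high and Ddc was present in every library (3.43 to 19.6 CPM), but the noradrenergic marker Th was at 0 in all 9 libraries, and Phox2a and Dbh had at most 3 counts and 1 count.

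Positions are given on GRCm38 (GENCODE M21). Gbp5, Gbp7, Gbp3 and Gbp2 lie in that order within 144 kb of chromosome 3 (chr3:142493978-142638008, plus strand). Gbp4 (chr5:105115767-105139586) and Gbp6 (chr5:105270702-105293698) are on the minus strand of chromosome 5. Igtp (chr11:58199556-58207591) and Irgm2 (chr11:58199618-58222782) are on the plus strand of chromosome 11, and Irgm1 (chr11:48861968-48871683) is on the minus strand of the same chromosome. All 10 are protein coding. The annotation gives Igtp and Irgm2 162 shared exonic bases, 8% of the exonic length of Igtp and 4.4% of that of Irgm2, so the split of reads between this pair was uncertain. Gbp6 shares 29% of its exonic bases with Gm43302, which had a count of 0 in every library, and Gbp7 shares 11.3% with the pseudogene Gm43802, which had at most 12 counts. Gbp4 shares under 1% of its exonic bases with Gbp8 and with Gbp9.

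The 250 bases before the transcription start were read from RefSeq (GRCm38.p6) for the 7 members with an entry, which were Gbp2, Gbp3, Gbp5, Gbp7, Irgm1, Irgm2 and Igtp. A GAS element was searched as TTCNNNGAA and an ISRE core as a pair of GAAA half-sites with any 2 bases between them, on both strands and allowing overlap. All 7 held the ISRE core, against 3.5% of 27025 genes, and 4 of 7 held a GAS element, against 8.1%. A gene was counted if any of its RefSeq windows matched. Gbp3 had 2 windows, and the second held no match. The window of Irgm1 lay wholly within GENCODE exons of that gene, and that of Gbp5 lay inside its GENCODE gene. A match is a description of the letters and not evidence of binding. The windows of Igtp and Irgm2 are shown first because this pair had the lowest changes of the 10 after R788 + anti-PDL1, and those of Gbp7 and Gbp3 stand for the cluster on chromosome 3. All 4 are on the plus strand and are written 5′ to 3′, with the matches in capitals. They run over chr11:58199306-58199555 for Igtp, chr11:58214727-58214976 for Irgm2, which lies in an intron of the longer GENCODE model of that gene, chr3:142530086-142530335 for Gbp7 and chr3:142559794-142560043 for Gbp3.
Igtp: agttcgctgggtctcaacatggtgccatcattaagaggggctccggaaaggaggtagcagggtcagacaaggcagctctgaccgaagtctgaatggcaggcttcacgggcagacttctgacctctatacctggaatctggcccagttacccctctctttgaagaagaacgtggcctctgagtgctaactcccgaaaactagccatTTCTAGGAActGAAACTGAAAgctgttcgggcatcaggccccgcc
Irgm2: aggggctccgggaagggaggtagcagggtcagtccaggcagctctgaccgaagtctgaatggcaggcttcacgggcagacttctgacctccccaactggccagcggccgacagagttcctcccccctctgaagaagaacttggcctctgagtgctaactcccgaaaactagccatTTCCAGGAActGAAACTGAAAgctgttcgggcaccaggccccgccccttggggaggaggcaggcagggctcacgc
Gbp7: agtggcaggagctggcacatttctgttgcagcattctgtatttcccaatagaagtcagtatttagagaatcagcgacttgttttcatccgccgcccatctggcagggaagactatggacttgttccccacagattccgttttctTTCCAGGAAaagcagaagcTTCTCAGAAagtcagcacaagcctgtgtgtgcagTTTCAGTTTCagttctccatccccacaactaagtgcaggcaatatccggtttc
Gbp3: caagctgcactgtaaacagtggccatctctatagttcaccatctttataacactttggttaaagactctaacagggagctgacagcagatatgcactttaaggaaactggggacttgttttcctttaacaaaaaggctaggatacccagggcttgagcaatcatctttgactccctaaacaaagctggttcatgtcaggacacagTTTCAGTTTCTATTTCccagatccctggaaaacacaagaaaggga

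In both Igtp and Irgm2 the GAS element preceded the ISRE core with 2 bases between them. The pair lay 45 to 25 bases before the start of Igtp and 75 to 55 bases before that of Irgm2. The longest run of identical bases in the 2 windows was 55, upstream of these elements. The window of Gbp7 held a pair of GAS elements and 1 ISRE core, and that of Gbp3 held overlapping ISRE cores and no GAS element. Gbp5 held the GAS elements TTCTGGGAA and TTCTCAGAA and the ISRE core TTTCAATTTC, whereas Gbp2 (TTTCACTTTC) and Irgm1 (GAAATAGAAA and GAAACCGAAA) held ISRE cores alone.

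To compare levels between genes, CPM was divided by exonic length in kilobases. In vehicle tumors Igtp had the highest level at 12.1 CPM per kb (range 8.84 to 13.9, n = 3), above the range of every other member. Irgm2 followed at 4.75 (3.08 to 5.68) and overlapped Gbp2 at 3.01 (2.91 to 3.2). Irgm1 at 2.26 and Gbp3 at 2.2 CPM per kb could not be ordered, since the range of Gbp3 (1.47 to 3.07) contained that of Irgm1 (2.11 to 2.38). Gbp7 was at 1.38 (1.13 to 1.64) and Gbp6 at 0.503 CPM per kb (0.297 to 0.671). Iigp1 (0.194), Gbp5 (0.103) and Gbp4 (0.0922) were lowest and their ranges overlapped. The mean order of the first 8 genes was kept in R788 + anti-PDL1 tumors, where Igtp, at 3.83 CPM per kb (3.46 to 4.38), still lay above the range of Irgm2 (2.41 to 2.74). In irradiated tumors the mean of Igtp was again highest at 8.27 CPM per kb (6.79 to 10.1), but its range met that of Gbp2 (2.2 to 6.85), and the ranges of Gbp2, Irgm2, Irgm1, Gbp3 and Gbp7 all overlapped.

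The first question was which GTPases the drug and antibody changed without radiation. Igtp fell in R788 + anti-PDL1 tumors relative to vehicle tumors and was the only 1 of the 10 members called, and the 3 other genes whose groups did not overlap, Irgm2, Irgm1 and Gbp2, did not pass the adjusted threshold. Igtp encodes a regulatory GTPase of the endoplasmic reticulum. Its level was 17.9, 27.4 and 28.2 CPM in the 3 vehicle tumors and 8.85, 7.36 and 7 CPM in the 3 R788 + anti-PDL1 tumors. Every R788 + anti-PDL1 tumor lay under every vehicle tumor. The means were 24.5 ± 5.75 and 7.74 ± 0.983 CPM (SD, n = 3), and the log2 fold change was -1.66 ± 0.26 (SE; edgeR quasi-likelihood test, Benjamini-Hochberg adjusted p = 0.0383). Across all 15931 genes tested, 0.678% were called in this comparison.

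The call for Igtp depended on the libraries, whereas its size did not. The log2 fold change stayed between -1.82 and -1.55 when each library was left out in turn. The edgeR adjusted p was 0.035 without vehicle replicate 1, 0.179 without vehicle replicate 2 and 0.209 without vehicle replicate 3. It was 0.122, 0.0767 and 0.222 without R788 + anti-PDL1 replicates 1, 2 and 3. The loss of the call was not particular to Igtp. Without vehicle replicate 2 or 3, or R788 + anti-PDL1 replicate 1 or 3, 0 of all genes tested were called. Without R788 + anti-PDL1 replicate 2, 0.208% were called. Igtp also took a lower share of the counts of Igtp and Irgm2 together. That share was 61.1%, 56.7% and 58.2% in vehicle tumors and 49.9%, 42.7% and 40.9% in R788 + anti-PDL1 tumors, so the groups did not overlap. It was 70.8%, 52.4% and 55.8% in irradiated tumors. The difference in share was not tested, and it depends in part on how the quantification divided reads in the 162 shared exonic bases.

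Irgm2, another regulatory GTPase and the neighbour of Igtp, had 11.4, 21 and 20.3 CPM in vehicle tumors and 8.9, 9.88 and 10.1 CPM in R788 + anti-PDL1 tumors. The groups did not overlap, although vehicle replicate 1 lay near the treated tumors. Its log2 fold change was -0.86 ± 0.36 (edgeR adjusted p = 0.384), with an unadjusted p under the 0.05 threshold. Irgm1, which is needed for autophagy and for resistance to mycobacteria, had 13.3, 12.2 and 13.8 CPM in vehicle tumors and 8.5, 9.23 and 8.35 CPM in R788 + anti-PDL1 tumors, and these groups did not overlap either. The difference was -0.59 ± 0.32 on the log2 scale (adjusted p = 0.553). Iigp1 (chr18:60376027-60392634, plus strand) is an effector GTPase that is loaded onto vacuoles. It had 0.607, 1.3 and 1.48 CPM in vehicle tumors and 1.06, 3.59 and 1.88 CPM in R788 + anti-PDL1 tumors, with overlapping groups and a log2 fold change of 0.94 ± 1.05.

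Among the guanylate-binding proteins, Gbp2, which is recruited to the vacuoles of intracellular parasites, had 7.34, 7.31 and 8.05 CPM in vehicle tumors and 4.05, 6.14 and 3.93 CPM in R788 + anti-PDL1 tumors. The groups did not overlap and the log2 fold change was -0.68 ± 0.43 (adjusted p = 0.622). Gbp3, its neighbour on chromosome 3, had 4.8, 6.68 and 10 CPM against 3.52, 6.41 and 3.73 CPM, a log2 fold change of -0.65 ± 0.46 with overlapping groups. Gbp7, linked to the killing of bacteria in macrophages, had 6.34, 9.2 and 7.67 CPM against 3.61, 9.84 and 7.12 CPM (log2 fold change -0.17 ± 0.71), and R788 + anti-PDL1 replicate 2 was above every vehicle tumor while replicate 1 was below. Gbp6 had 1.77, 3.99 and 3.23 CPM against 1.5, 4.96 and 2.7 CPM, a log2 fold change of 0.03 ± 0.73. Gbp5, which promotes assembly of the NLRP3 inflammasome, had 0.662, 0.404 and 0.986 CPM against 0.705, 1.34 and 0.901 CPM, a log2 fold change of 0.53 ± 1.05. Gbp4 was the most scattered of this family in vehicle tumors, with 2, 34 and 8 counts, and had 18, 115 and 26 counts in R788 + anti-PDL1 tumors. Its log2 fold change was 1.57 ± 1.34 (adjusted p = 0.733), with 0.4 when R788 + anti-PDL1 replicate 2 was left out and 2.89 when vehicle replicate 2 was, and the groups overlapped. R788 + anti-PDL1 replicate 2 was highest of that group for all 6 guanylate-binding proteins. That tumor also had the highest sums of its group for 5 endothelial markers (115 CPM against 40.5 and 62.7), 6 fibroblast markers (5420 CPM against 2940 and 3440) and 5 NK cell markers (10.3 CPM against 3.39 and 5.4). The same held for 7 dendritic cell markers (29.9 CPM against 22.6 and 23.7) and 5 neutrophil markers (4.69 CPM against 3.13 and 4.13). It also held for 7 genes of MHC class II presentation (619 CPM against 132 and 264). The sum of 4 B cell markers was lowest (2.06 CPM against 2.16 and 3.27). This tumor also had the lowest sums of its group for T cell markers (15.9 CPM against 29.8 and 17.5) and macrophage markers (733 CPM against 739 and 748). The macrophage sums lay close together, and single markers of both lists went both ways. Cd4, most of the T cell sum in the rest of the group, was lowest there (2.02 CPM against 22.9 and 12.2). Lck was highest (9.8 CPM against 5.99 and 3.81). Cd68 was lowest (31.2 CPM against 65.6 and 57.9) and Csf1r highest (78.2 CPM against 41.4 and 49.6). The part of all these cells in the GTPase levels was not tested.

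Counted over the members, 4 of 10 had groups that did not overlap, all lower after R788 + anti-PDL1, against 30.1% of all genes tested in either direction. An unadjusted p under 0.05 was reached by 2 of 10 (Irgm2 and Igtp), against 11.7% of all genes. The median log2 fold change of the 10 was -0.38, beside -0.02 over all genes tested, with 6 negative and 4 positive. The summed level of the 4 immunity-related GTPases was 43.15, 61.91 and 63.74 CPM in vehicle tumors and 27.31, 30.06 and 27.35 CPM in R788 + anti-PDL1 tumors, with no overlap. The summed level of the 6 guanylate-binding proteins was 21.02, 29.12 and 30.39 CPM in vehicle tumors and 14.18, 33.07 and 19.44 CPM in R788 + anti-PDL1 tumors, and these ranges overlapped.

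**Figure D1:**
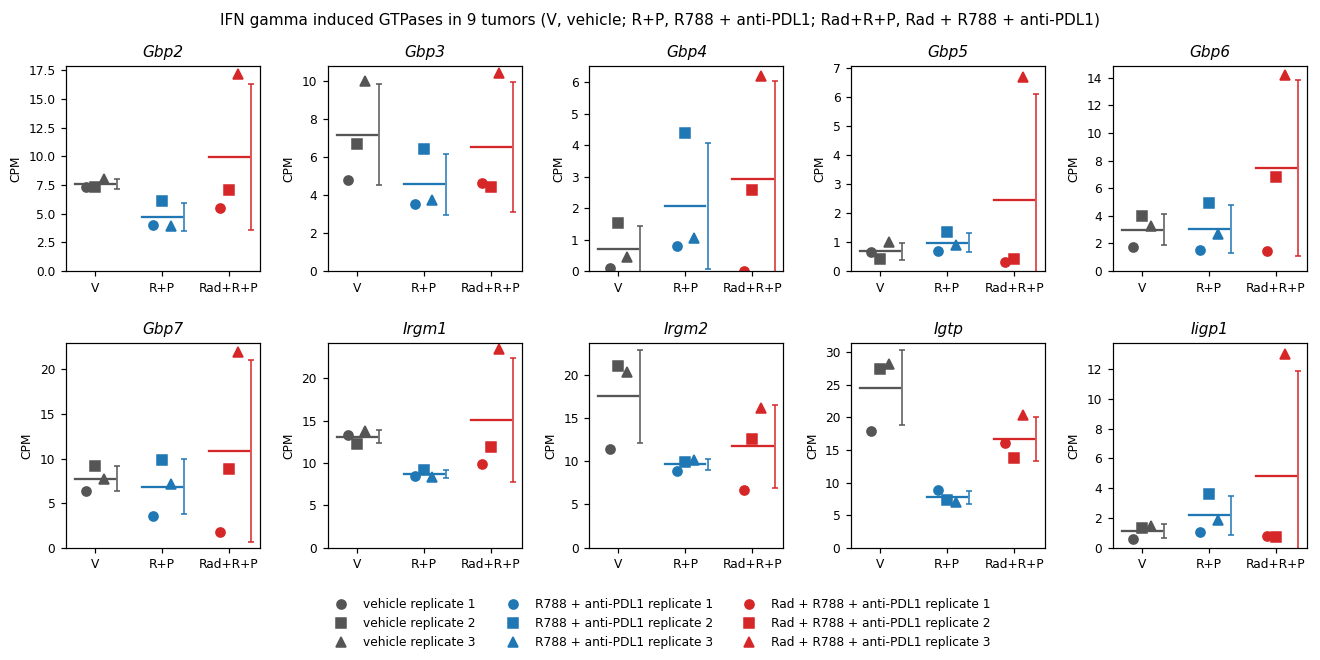
CPM of each of the 10 GTPases (y axis, linear, starting at 0) in the 9 tumors, by group on the x axis. Points are single tumors with the replicate given by the symbol, horizontal lines are group means and bars are SD (n = 3, cut at 0 where they reach below it). Igtp is at 7 to 8.85 CPM in the R788 + anti-PDL1 tumors and at 17.9 to 28.2 CPM in the vehicle tumors, and irradiated replicate 3 is the highest of all tumors for every gene but Irgm2 and Igtp.

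The second question was what the drug and antibody did together with radiation, relative to vehicle. No member was called by edgeR (0 of 10, with 0 of 10 at an unadjusted p under 0.05), and DESeq2, which gave no p for Gbp5, called 0 of the other 9 and 3.16% of all genes. Across all genes, 0.0439% were called by edgeR and 13.2% had an unadjusted p under 0.05. No member had groups that did not overlap, against 20.5% of all genes. The lowest adjusted p of the 10 was 0.385, for Igtp. The median log2 fold change of the members was 0.45, beside 0.05 over all genes, with 7 positive and 3 negative.

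The 3 irradiated tumors lay far apart for most members. Iigp1 had 0.81, 0.71 and 13 CPM in irradiated replicates 1 to 3. Gbp5 had 0.295, 0.406 and 6.66 CPM. For both genes replicates 1 and 2 lay near the vehicle tumors and replicate 3 stood far above. Gbp4 had 0, 51 and 136 counts, where the 0 allows up to 0.221 CPM in that library. Gbp7 had 1.77, 8.87 and 21.9 CPM and Gbp6 had 1.47, 6.79 and 14.2 CPM, so these 3 genes had a low, a middle and a high tumor. Gbp2 had 5.52, 7.1 and 17.2 CPM, Gbp3 had 4.64, 4.41 and 10.4 CPM, and Irgm1 had 9.94, 11.9 and 23.4 CPM. The 2 remaining regulators had the lowest SD relative to the mean, with 6.63, 12.5 and 16.1 CPM for Irgm2 and 16.1, 13.7 and 20.3 CPM for Igtp.

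Irradiated replicate 3 was the highest of the 9 tumors for 8 of 10 members, while it was highest for 9.11% of all genes tested. For Irgm2 and for Igtp it ranked behind vehicle replicates 2 and 3. Relative to the mean of irradiated replicates 1 and 2, its level was 19-fold for Gbp5, 17-fold for Iigp1, 4.8-fold for Gbp4, 4.12-fold for Gbp7 and 3.43-fold for Gbp6. The ratio was smaller for Gbp2 (2.73-fold), Gbp3 (2.31-fold), Irgm1 (2.15-fold), Irgm2 (1.69-fold) and Igtp (1.37-fold). Irradiated replicate 1 was the lowest of the 9 for 5 of 10 members, and it was lowest for 34.7% of all genes tested. The summed level of all 10 members was 47.14, 68.94 and 149.5 CPM in irradiated replicates 1 to 3, between 64.17 and 94.14 CPM in vehicle tumors and between 41.49 and 63.13 CPM in R788 + anti-PDL1 tumors.

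**Figure D2:**
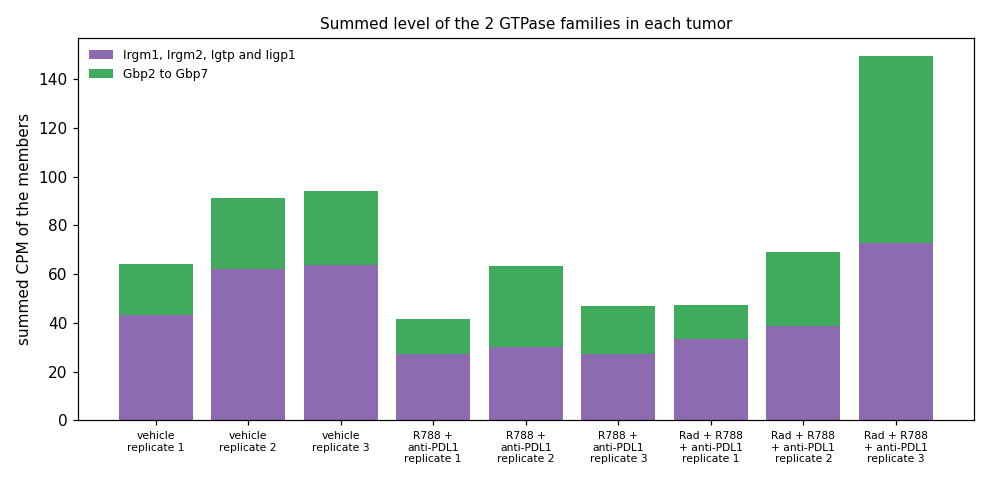
Summed CPM of the members (y axis) in each of the 9 tumors (x axis), stacked by family, with Irgm1, Irgm2, Igtp and Iigp1 below and Gbp2 to Gbp7 above. Irradiated replicate 3 reaches 149.5 CPM, and its guanylate-binding proteins alone sum to 76.63 CPM, whereas the 3 R788 + anti-PDL1 tumors have the lowest sums of immunity-related GTPases at 27.31 to 30.06 CPM.

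The largest positive log2 fold changes in irradiated against vehicle tumors belonged to Iigp1 (2.1 ± 1.07, SE) and Gbp4 (2.07 ± 1.35), followed by Gbp5 (1.86 ± 1.06) and Gbp6 (1.32 ± 0.74). Those of Gbp7 (0.49), Gbp2 (0.4) and Irgm1 (0.2) were small next to their spread. Irgm2 (-0.58 ± 0.36), Igtp (-0.55 ± 0.26, adjusted p = 0.385) and Gbp3 (-0.14 ± 0.46) were negative. Without irradiated replicate 3, the log2 fold change was -0.58 for Iigp1 and -0.94 for Gbp5, only 2 of 10 members stayed positive, and the median of the members was -0.55. With each of the other 5 libraries of this comparison left out, 7 or 8 of 10 were positive and the median lay between 0.39 and 0.88.

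The summed markers of macrophages, T cells, NK cells, dendritic cells and neutrophils, though not of B cells, were highest in irradiated replicate 3. The summed level of 11 macrophage markers was 1950 CPM in that tumor and 561 and 373 CPM in irradiated replicates 1 and 2, against 337 to 700 CPM in vehicle and 733 to 748 CPM in R788 + anti-PDL1 tumors, and 9 of 11 were highest in irradiated replicate 3. The 9 T cell markers summed to 44.5 CPM there and to 3.68 to 29.8 CPM elsewhere, with 7 of 9 highest, and the 5 NK cell markers to 11.7 CPM there and to 1.35 to 10.3 CPM elsewhere, with 3 of 5 highest. In the same tumor 3 of 7 dendritic cell, 1 of 5 neutrophil and 1 of 4 B cell markers were highest. The B cell sum was 3.19 CPM there and 3.27 CPM in R788 + anti-PDL1 replicate 3. All macrophage, T cell and NK cell markers had counts in at least 1 library. The part of these cells in the levels of the GTPases was not tested. In R788 + anti-PDL1 tumors, where Igtp was lowest, the macrophage sums were above those of all vehicle tumors. Of the 11 macrophage markers, 3 were higher without overlap, against 30.1% of all genes in either direction. An unadjusted edgeR p under 0.05 was reached by 0 of 11, against 11.7% of all genes. In the same R788 + anti-PDL1 tumors the neutrophil sums of 3.13 to 4.69 CPM overlapped those of vehicle tumors (4.41 to 11.4 CPM), with Ly6g at 0 in all libraries. Of 4 neutrophil markers tested, 3 were lower without overlap there (median log2 fold change -1.87), among them S100a9 at -3.45 ± 0.74 (edgeR adjusted p = 0.0832) and S100a8 at -3 ± 0.73 (adjusted p = 0.11). Their part in the level of Igtp was not tested.

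The irradiated tumors were then compared with R788 + anti-PDL1 tumors, the comparison that isolates radiation given on top of the drug and antibody. All 10 log2 fold changes were positive and the median was 0.94, beside 0.04 over all genes tested, but edgeR called 0 of 10 (3 of 10 at an unadjusted p under 0.05) and DESeq2 called Igtp alone of the 9 members to which it gave a p, and 4.02% of all genes. Over all genes, edgeR called 0.00628% and gave an unadjusted p under 0.05 for 18.4%. Groups did not overlap for 2 of 10 members, Irgm1 and Igtp, against 27.4% of all genes. For Irgm1 the gap was narrow, with 9.94 CPM in irradiated replicate 1 and 9.23 CPM in R788 + anti-PDL1 replicate 2. It depended on the TMM factor of 0.743 of irradiated replicate 1.

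Igtp had 16.1, 13.7 and 20.3 CPM in irradiated tumors, all above the 7 to 8.85 CPM of R788 + anti-PDL1 tumors. The means were 16.7 ± 3.35 and 7.74 ± 0.983 CPM (SD, n = 3). The log2 fold change was 1.11 ± 0.26 (edgeR adjusted p = 0.175), and DESeq2 gave 1.11 with an adjusted p of 0.00989. It lay between 0.94 and 1.23 with each library left out in turn. Irgm1 differed by 0.8 ± 0.32 (edgeR adjusted p = 0.251) and Gbp2 by 1.08 ± 0.43 (adjusted p = 0.25), and both, like Igtp, had an unadjusted p under 0.05. Without irradiated replicate 3 these differences were 0.33 and 0.42, and that of Gbp6 went from 1.3 to 0.44. The remaining changes ran from 0.29 ± 0.36 for Irgm2 to 1.33 ± 1.03 for Gbp5. Without irradiated replicate 3, 4 of 10 members were positive and the median was -0.01, and the log2 fold changes of Iigp1 and Gbp5 were -1.52 and -1.46. Igtp kept its direction without that tumor, whereas 6 of the 10 members were then negative. The 3 comparisons share their groups, so values for 1 gene are not independent between them.

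**Figure D3:**
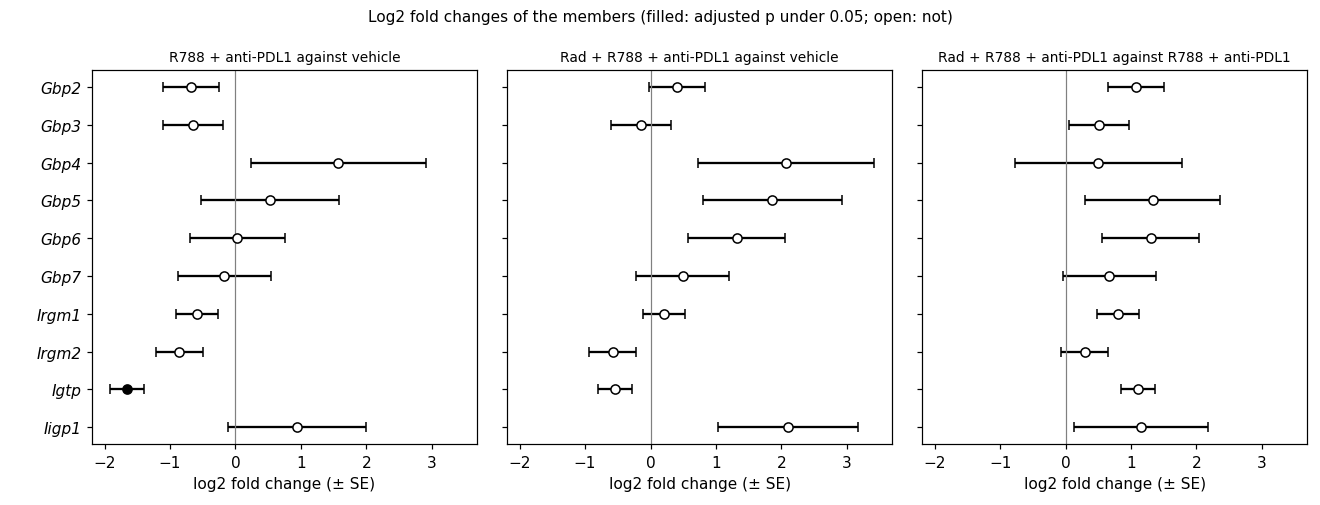
Log2 fold change (x axis) of each member (y axis) in the 3 comparisons, with bars of 1 SE from the edgeR fit over 9 libraries. Filled points have an adjusted p under 0.05, which holds for Igtp in R788 + anti-PDL1 against vehicle (-1.66) and for no other point.

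**Figure D4:**
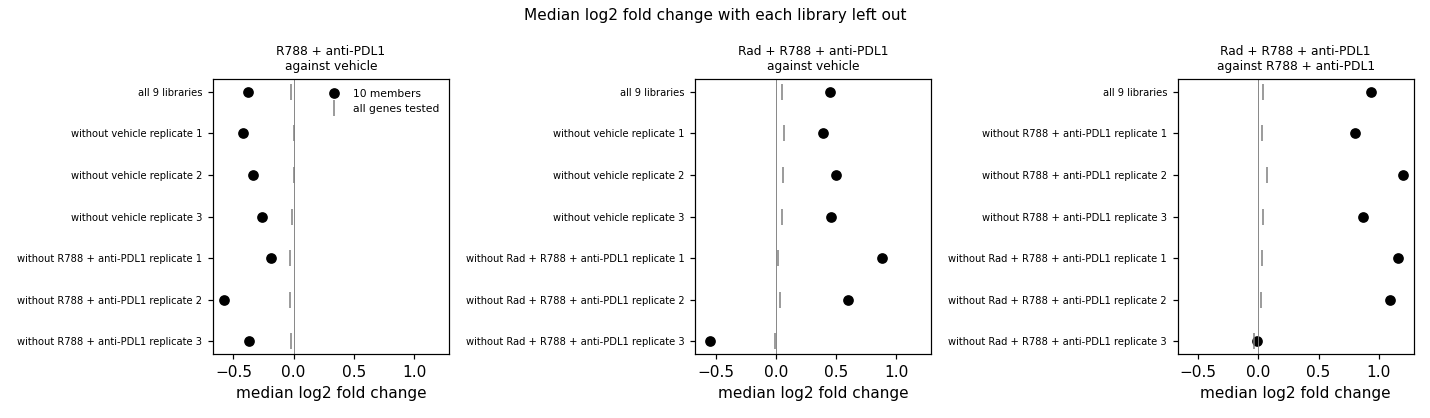
Median log2 fold change (x axis) of the 10 members (points) and of all genes tested (ticks), with all 9 libraries and with each library of the comparison left out (y axis). The median of the members drops from 0.45 to -0.55 against vehicle and from 0.94 to -0.01 against R788 + anti-PDL1 when irradiated replicate 3 is left out.

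The members did not vary as 1 unit. Over the 9 tumors, which share groups and differ in depth, Pearson's r of log2 CPM between pairs of members ran from -0.2 to 0.98 with a median of 0.65 over 45 pairs. Gbp2 and Irgm1 formed the closest pair (r = 0.98). Gbp6 and Gbp7 were most like the mean of the other members (r = 0.9 for each), and Igtp was least like it (r = 0.2). Without irradiated replicate 3 the median over pairs was 0.37 and 9 of 45 pairs were negative, against 2 of 45 with all tumors. Among all other genes tested, the 5 most like the centred mean of the members over the 9 tumors were Ptpro (r = 0.984), Parp14 (0.972), Phf11a (0.956), Usp18 (0.953) and Il4ra (0.948). Usp18 encodes a protease that removes ISG15 and dampens interferon signalling, Parp14 an ADP-ribosyltransferase, Ptpro a receptor tyrosine phosphatase and Il4ra a subunit of the interleukin 4 receptor.

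Of 17 further IFN-inducible GTPases listed, 16 were in the table and 11 were tested, and none was called in any comparison by edgeR. An unadjusted p under 0.05 was reached by 1, 4 and 1 in R788 + anti-PDL1 against vehicle, irradiated against vehicle and irradiated against R788 + anti-PDL1. The shares over all genes were 11.7%, 13.2% and 18.4%. Irradiated replicate 3 was the highest tumor for 10 of these 11. The median log2 fold changes were 0.93, 1.8 and 0.93 in the same order. Gbp8 had 0.441, 0.314 and 0.986 CPM in vehicle, 1.19, 1.41 and 1.39 CPM in R788 + anti-PDL1 and 1.55, 1.52 and 4.52 CPM in irradiated tumors, so the 3 groups did not overlap. Its log2 fold change was 2.13 ± 0.63 in irradiated against vehicle tumors (edgeR adjusted p = 0.265). Ifi47, another immunity-related GTPase, had 0.993 to 1.97 CPM in vehicle and 3.31, 2.38 and 15 CPM in irradiated tumors, with a log2 fold change of 2.26 ± 0.74 (adjusted p = 0.285). Mx2, of the Mx family of interferon-induced GTPases and annotated as a polymorphic pseudogene, had the lowest value in R788 + anti-PDL1 against vehicle tumors at -1.81 ± 0.6 (adjusted p = 0.259), whereas Gm5431 had the highest at 2.21 ± 1.52. Gbp10 was counted in R788 + anti-PDL1 replicate 2 (39 counts) and irradiated replicate 3 (20 counts) and had 0 counts in the other libraries.

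In the genes described from here on, Ifng, Irf1, Nlrc5, Cd274, Il1b and Il18 overlap another annotated gene, as do Usp18, Ptpro, Parp14 and Il4ra above, which made their counts less certain. Upstream of the GTPases, the ligand Ifng was too low to test, with 2, 2 and 0 counts in vehicle, 0, 6 and 1 in R788 + anti-PDL1 and 0, 0 and 27 in irradiated tumors. The 27 counts belonged to irradiated replicate 3, in which 8 of 10 members were highest. The part of Ifng in the levels of the GTPases was not tested. The receptor subunits Ifngr1 and Ifngr2 had log2 fold changes between -0.19 and 0.47 in the 3 comparisons. None of the 12 JAK-STAT and IRF regulators was called in any comparison by edgeR. An unadjusted p under 0.05 was reached by 3, 1 and 2, against 11.7%, 13.2% and 18.4% of all genes. Irf1, a transcription factor of this response, differed by -0.35 ± 0.23 in R788 + anti-PDL1 and by -0.13 ± 0.23 in irradiated tumors against vehicle. Socs1, which encodes an inhibitor of the JAK kinases, was, like Igtp, lowest in R788 + anti-PDL1 tumors, with 24.4, 14.9 and 19.1 CPM in vehicle, 7.49, 12.3 and 9.46 CPM in R788 + anti-PDL1 and 21.6, 20.9 and 19.3 CPM in irradiated tumors. The vehicle and irradiated ranges overlapped. R788 + anti-PDL1 tumors differed from vehicle tumors by -1 ± 0.26 on the log2 scale (adjusted p = 0.143), and irradiated tumors differed from R788 + anti-PDL1 tumors by 1.08 ± 0.26 (adjusted p = 0.184).

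Other interferon targets gave no called gene in any comparison either. The 14 genes of the type I interferon response had median log2 fold changes of -0.5, 0.11 and 1.11 in R788 + anti-PDL1 against vehicle, irradiated against vehicle and irradiated against R788 + anti-PDL1, and 13 of 14 were highest in irradiated replicate 3. The 7 genes of MHC class II presentation were positive in all 3 comparisons, with medians of 1.79, 2.74 and 0.92. In irradiated against vehicle tumors 7 of 7 had an unadjusted edgeR p under 0.05, against 13.2% of all genes (lowest adjusted p = 0.235). Groups did not overlap there for 4 of 7, against 20.5% of all genes. All 7 were highest in irradiated replicate 3, where they summed to 1390 CPM, against 356 and 189 CPM in irradiated replicates 1 and 2. Of 10 genes of MHC class I presentation, Nlrc5, the transactivator of that pathway, came closest to the threshold, at 2.29 ± 0.45 (adjusted p = 0.0663) and 2.4 ± 0.45 (adjusted p = 0.098) in R788 + anti-PDL1 and irradiated tumors against vehicle. Nlrc5 was thus above all vehicle tumors in both treated groups, whereas Igtp was below them in the R788 + anti-PDL1 group alone. Of the 5 tested IFN gamma induced chemokines and enzymes, all had negative values in R788 + anti-PDL1 against vehicle tumors, from -2.23 ± 0.87 for Nos2 to -0.16 ± 0.62 for Cd274. The 8 genes of the inflammasome pathway that guanylate-binding proteins act on ranged from -1.78 ± 0.54 for Il1b to 1.19 ± 0.6 for Il18 in the same comparison.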

How the data were processed

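Whole-tumor RNA (polyA enriched, per the labels) was sequenced from 9 tumors in 3 groups taken from the treatment labels. The authors deposited estimated counts per gene symbol from Salmon (1.4.0, with STAR 2.6.1d and build mm10 in the submitters' processing notes) as whole numbers, without normalization. The sources conflict on the RNA source (bone marrow derived macrophages in the extraction text, whole tumor as tissue) and on the sequencing run, and strandedness was not given in the sources used here, nor was a batch. Here, filterByExpr (minimum count 10) left 15931 of 54429 symbols, and TMM-normalized counts of all 9 libraries were fitted in 1 edgeR 4.0.16 quasi-likelihood model (R 4.3.3, a coefficient per group, no covariate, two-sided tests). Calls used a Benjamini-Hochberg adjusted p under 0.05 over all genes tested. The fit was tested on simulated data in which all genes had the same dispersion (spread between replicates) and no tumor was made outlying. GENCODE M21 gave identifiers and coordinates for 98.9% of symbols. Alternatives were DESeq2 1.42.0, voom with sample quality weights in limma 3.58.1, RLE normalization, no low-count filter, a fit of only the compared libraries, a replicate block, and each library left out. The authors' methods name DESeq2. Replicates are tumors whose labels name no separate animals, so p-values measure the spread between these samples. The members and lists were chosen with earlier results of these data known. All members were named with every library's value. For other lists, counts, medians and extreme members are given, and similar genes were the 5 with the highest Pearson r (log2 CPM, prior count 2). Some genes of these lists are not reported here.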

Additional observations from a re-analysis of the deposited data

How the results depend on the processing

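In R788 + anti-PDL1 against vehicle, 1 member was called, beside 0.678% of all genes. This number was 5 with voom quality weights (30.3% of all genes called) and 0 with the replicate block (0% of all genes called). With single libraries left out it was 0 to 1, while 0% to 0.449% of all genes were called. In irradiated against vehicle the number of members called was 0, and 2 with voom quality weights (12.5% of all genes called). In irradiated against R788 + anti-PDL1 it was 0, but 1 with DESeq2 (4.02% of all genes called) and 4 with voom quality weights (19.3%). Igtp kept its negative sign in R788 + anti-PDL1 against vehicle in 12 of 12 alternatives (-1.88 to -1.55) and was called in 6, with adjusted p from 4.5e-06 to 0.222. Gbp6 was -0.35 with voom quality weights and -0.03 with the replicate block in that comparison, and Gbp4 was -0.05 with the block in irradiated against R788 + anti-PDL1. The cause was not tested.

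With single libraries left out, signs turned for Gbp6 (-0.51 to 0.35) and Gbp7 (-0.53 to 0.13) in R788 + anti-PDL1 against vehicle. In irradiated against vehicle they turned for Gbp2 (-0.26 to 0.72), Gbp3 (-0.67 to 0.18), Gbp5 (-0.94 to 2.41), Gbp7 (-0.53 to 1.03), Irgm1 (-0.27 to 0.46) and Iigp1 (-0.58 to 2.64). In irradiated against R788 + anti-PDL1 they turned for Gbp3 (-0.01 to 0.84), Gbp4 (-0.66 to 1.66), Gbp5 (-1.46 to 1.86), Gbp7 (-0.36 to 1.17), Irgm2 (-0.01 to 0.58) and Iigp1 (-1.52 to 1.72).

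Whether replicate numbers pair the tumors could not be settled. Deviations from group means correlated at -0.05 to 0.23 between tumors of the same number, and 5 of 9 libraries correlated best with their own number. Between vehicle and irradiated tumors of the same number the correlations were 0.23, 0.19 and 0.05. Values for tumors of different numbers are not given here, so these correlations cannot exclude a pairing. With the replicate block, Igtp was -1.64 (adjusted p = 0.0787) in R788 + anti-PDL1 against vehicle, and 0, 3 and 0 of all genes were called in the 3 comparisons, against 108, 7 and 1. The median of the members in irradiated against R788 + anti-PDL1 was then 0.39 with 9 of 10 positive, against 0.94 with 10 of 10, and in irradiated against vehicle 0.21 against 0.45. Gbp4, Gbp5 and Iigp1 were least precise, with SE of 1.02 to 1.35 on the log2 scale.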
